A study of Mesocricetus auratus with 10 samples.

Results

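Serpins and inter-alpha-trypsin inhibitor heavy chains (ITIH) were followed in hamster liver as a family of 32 genes. They were all the genes on the array whose name from the array's design starts with SERPIN and a clade letter or with ITIH and a number, each represented by its brightest probe, out of 13827 named genes tested. The livers examined were those of 10 male golden hamsters, Mesocricetus auratus, on a high fat diet (HFD), which the study uses as a model of fatty liver. Each was set against 1 pool of liver RNA from 10 hamsters on a standard diet (STD). Strain, age, diet composition and feeding time were not stated. Every HFD liver was hybridised with the STD pool on a dye-swapped pair of custom Agilent arrays, 20 arrays in all for 10 animals. Values are log2 ratios, HFD liver over STD pool, with the mean ± SD over 10 animals. A gene was called when limma's two-sided test of the mean ratio against 0 gave an adjusted p under 0.05. That test takes the pool as a fixed reference, so the spread among STD animals is not in it. The direction of every ratio rests on the dye given in each array's name, and the number of arrays limits the precision.

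Most serpins inhibit serine proteases by a suicide mechanism, in which the protease cleaves an exposed loop and stays covalently trapped. Hepatocytes secrete many of them into plasma, where they restrain clotting, fibrinolysis, complement and neutrophil proteases. Clade B serpins stay mainly inside cells and are abundant in leukocytes. Some serpins inhibit no protease and act as hormone carriers, chaperones or signals. ITIH heavy chains are liver-secreted proteins that are joined to bikunin, a Kunitz inhibitor cut from the AMBP precursor, and transferred to hyaluronan in the extracellular matrix.

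The array measured these genes with 161 probes of 60 bases, designed on 46 assembled transcripts, and 158 probes passed the filter on dim signals. Their sequences are those of the deposited scanner files, given 5′ to 3′. The brightest probes of the genes with the largest change in each direction are printed first, with nothing marked.
SERPINF1 probe 66775: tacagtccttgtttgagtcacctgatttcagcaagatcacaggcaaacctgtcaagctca
SERPINB1A probe 65147: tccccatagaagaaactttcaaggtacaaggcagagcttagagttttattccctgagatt
SERPING1 was covered by transcripts assembled on opposite strands, and a pair of its probes are exact reverse complements over all 60 bases, all in capitals here.
SERPING1 probe 68463: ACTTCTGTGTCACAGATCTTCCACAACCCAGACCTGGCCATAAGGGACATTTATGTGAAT
SERPING1 probe 67294: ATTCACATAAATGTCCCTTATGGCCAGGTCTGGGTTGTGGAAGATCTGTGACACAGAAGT
The SERPINA3 genes are close relatives, and the next pair overlap by 33 bases without gaps, with 29 matches. Capitals mark the 4 bases that differ within the overlap.
SERPINA3C probe 8054: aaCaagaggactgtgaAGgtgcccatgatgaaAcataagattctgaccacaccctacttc
SERPINA3C probe 19730: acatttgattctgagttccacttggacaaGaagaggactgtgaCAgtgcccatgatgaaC
A probe of SERPINA3N and the SERPINA3M probe overlap by 33 bases with 27 matches, and capitals again mark the bases that differ.
SERPINA3N probe 19435: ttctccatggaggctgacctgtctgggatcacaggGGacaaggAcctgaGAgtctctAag
SERPINA3M probe 2251: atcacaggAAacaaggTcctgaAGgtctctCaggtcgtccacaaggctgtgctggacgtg

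All 32 genes were tested, and 31 were well above background in both RNAs on all 20 arrays. In HFD liver 11 members rose and 13 fell, and 8 did not pass the test. Among all genes tested 31.4% rose and 28.9% fell (60.3% in either direction), against 34.4% and 40.6% of the members, so the share of members called higher lay near the background. The median ratio of the members was -0.03, and that of all genes was 0.01. Changes of at least 0.4 on the log2 scale were more frequent. By that much 5 members rose and 5 fell, 15.6% of the members each, against 4.6% and 4.95% of all genes. The 5 that fell include SERPINC1 and SERPINA1, whose probes may lie opposite to the messenger, which was not tested. The change had the same sign in all 10 animals for 8 members called higher and 9 called lower (25% and 28.1%), against 16.3% and 15.2% of all genes. The median size of the mean ratio was 0.24 for the members and 0.11 for all genes.

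**Figure D1:**
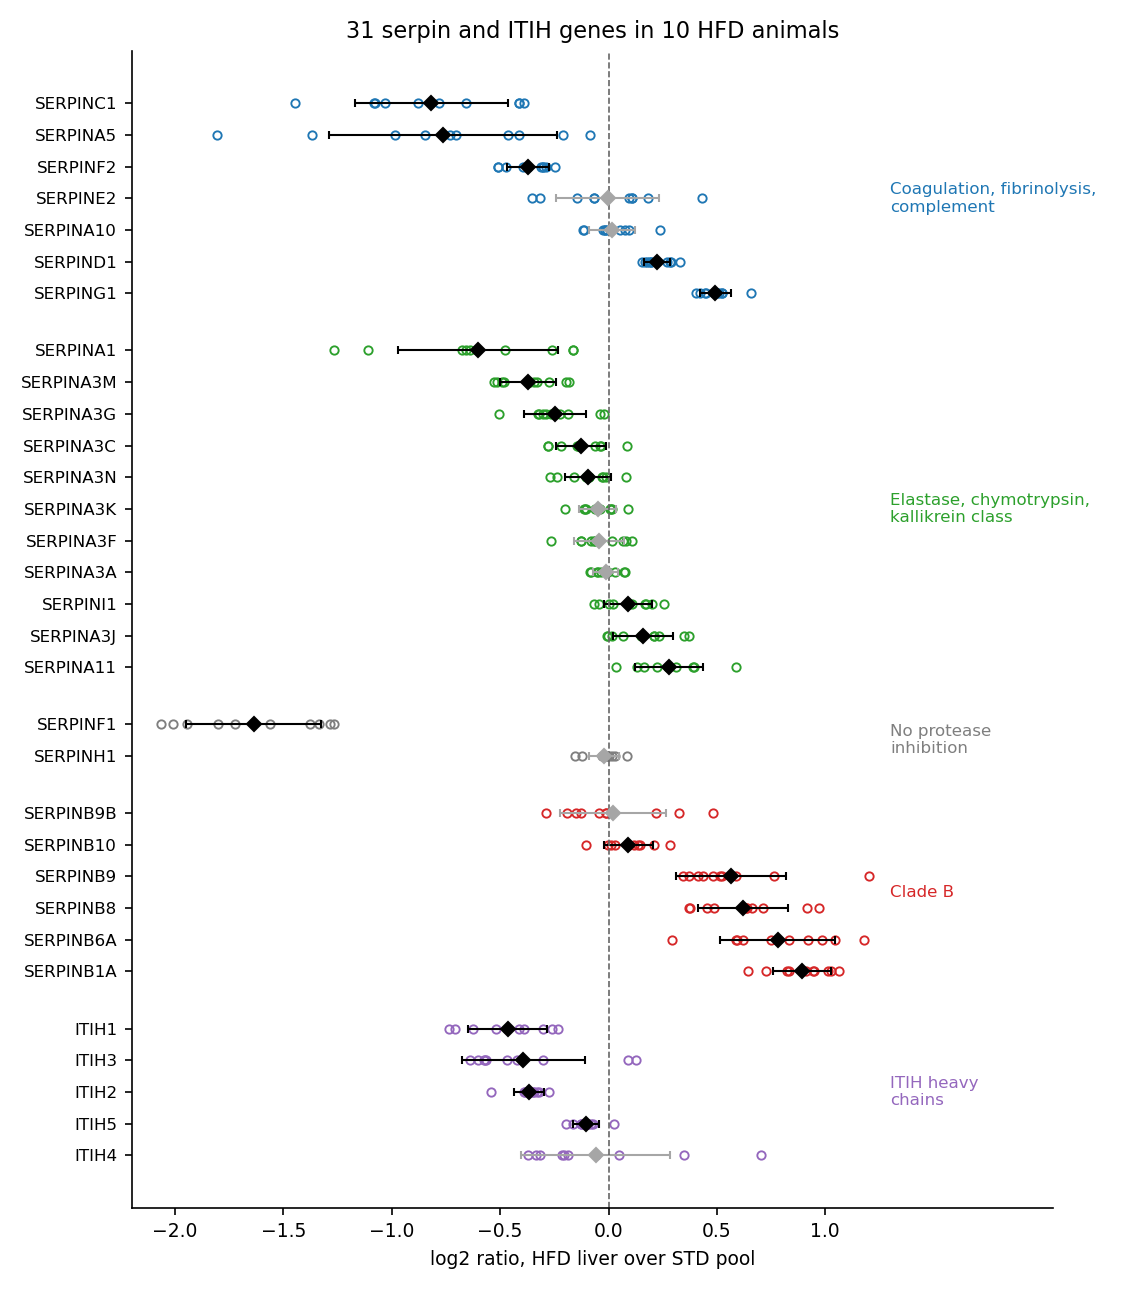
Log2 ratios (HFD liver over STD pool) for 31 of the 32 genes, grouped by role. Open circles are the 10 animals, diamonds the mean with its SD, black where limma's adjusted p was under 0.05 and grey where not; SERPINF1 lies below -1.2 in every animal and 4 clade B genes lie above 0.2 in every animal.

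The direction differed between the roles. Of 6 clade B serpins 5 rose and none fell, with a median ratio of 0.59. Of 5 ITIH genes none rose and 4 fell, with a median of -0.37. The 8 serpins of clotting, fibrinolysis and complement divided into 3 that rose, 3 that fell and 2 that were not called. Among the 11 serpins grouped with the elastase, chymotrypsin and kallikrein class 3 rose, 5 fell and 3 were not called. That grouping also holds SERPINI1, neuroserpin, which is among the 3 that rose. These counts were described and not tested as groups.

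Hepatocyte markers and a set of arrays moved with these results. Of 17 tested hepatocyte markers 12 fell and 1 rose, with a median ratio of -0.34, and their mean per animal lay between -0.51 and -0.23, below 0 in 10 of 10 animals. Of those markers 16 were well above background in both RNAs on all 20 arrays. They did not move alike, with means from -1.17 for FGB to 0.27 for APOB. ALB, TTR, CYP2E1, ASGR1 and HPD had opposite signs in the 2 dye orientations. ALB was at 0.35 with HFD in Cy5 and -0.81 with HFD in Cy3. In bulk RNA fewer hepatocytes and less RNA per hepatocyte cannot be told apart, and the part of either in the ratios below was not tested. The 6 arrays that held the HFD RNA of animals 5 to 10 in Cy3 stood apart. Across all genes they correlated with each other at a mean r of 0.88, with the other 4 arrays of that dye orientation at 0.574 and with the 10 arrays of the other orientation at 0.483. The mean of the hepatocyte markers was -0.53 on these 6 arrays, against -0.25 on the other 4 with HFD in Cy3 and -0.30 on the 10 with HFD in Cy5. Called members that moved by more than 1.5 times without the 6 arrays are given with both values. Among members not called, SERPINA10 was at -0.02, SERPINE2 at 0.0093, SERPINH1 at 0.02, SERPINA3F at 0.02 and SERPINA3A at 0.0073 without them, each with its sign turned. ITIH4 and SERPINA3K were both at -0.03 there. The 2 dye orientations differed for 12 of the 32 members by a test over all genes, in which 48.7% of genes were called.

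SERPINF1, or pigment epithelium-derived factor, is a secreted serpin without protease inhibition that restrains vessel growth. It had the largest change of the family. The lowest animal was at -2.07, the median at -1.64 and the highest at -1.27. All 10 animals lay far below 0, and animals 9 and 10 were the lowest. The mean of -1.64 ± 0.31 was a 3.11-fold lower level in HFD liver (limma adjusted p = 7.95e-09), and it ranked number 6 from the lowest of all 13827 genes. In normalised log2 signal the gene averaged 11.76 in HFD liver, against 13.40 in the STD pool. All 6 of its probes were called lower, with means from -1.64 to -1.30. Its ratio was -1.77 with HFD in Cy5 and -1.50 with HFD in Cy3. The 6 arrays mattered little here, with -1.67 on the other 14. PNPLA2, a lipase reported to bind this serpin, fell by 0.27 on the log2 scale (adjusted p = 6.92e-04, limma), and lay below 0 in 9 of 10 animals; this gene was picked after its values were seen.

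SERPINF2, alpha-2-antiplasmin, is the main plasmin inhibitor of plasma and the direct neighbour of SERPINF1 in RefSeq's annotation of assembly BCM_Maur_2.0. It lay between -0.51 and -0.25 with a median of -0.34. Its mean was -0.37 ± 0.10 (limma adjusted p = 6.40e-07), and both of its probes were lower. The neighbours thus fell together, SERPINF2 by a smaller amount with a narrow spread between animals. SERPINH1, the collagen chaperone HSP47, averaged -0.02 ± 0.07 (adjusted p = 0.504, limma), and none of its 4 probes was called.

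SERPINC1, antithrombin, is the plasma inhibitor of thrombin and factor Xa that heparin activates. Its animals ran from -1.45 to -0.39 with a median of -0.83. Animals 1 to 4 held the 4 values nearest 0, and animals 5 to 10 all lay lower. The mean was -0.82 ± 0.35, a 1.76-fold lower signal in HFD liver (limma adjusted p = 9.71e-06), and all 7 probes were called lower. The files do not state which strand these probes read. As given, 6 of the 7 probes had a reading frame without stop triplets, against 7 of 7 on the reverse complement. Of the 46 transcripts it was the only 1 with such a frame at every probe on the reverse but not as given. That rests on 1 probe. Over all probes of the array 10.2% had no such frame as given and 13% had none on the reverse. The frame of 1 probe cannot decide the strand, and the 7 probes may lie on the strand opposite to the messenger. Whether the signal is that of the messenger or of its antisense strand was not tested. The gap between the animals came from one dye orientation. With HFD in Cy5 the 6 animals 5 to 10 averaged -0.65 ± 0.17, against -0.64 ± 0.11 in animals 1 to 4. With HFD in Cy3 the same 6 animals averaged -1.45 ± 0.36, against -0.29 ± 0.15 in the other 4. Without the 6 arrays the estimate was -0.47 (adjusted p = 6.11e-08, limma), so the direction held and the size was smaller.

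**Figure D2:**
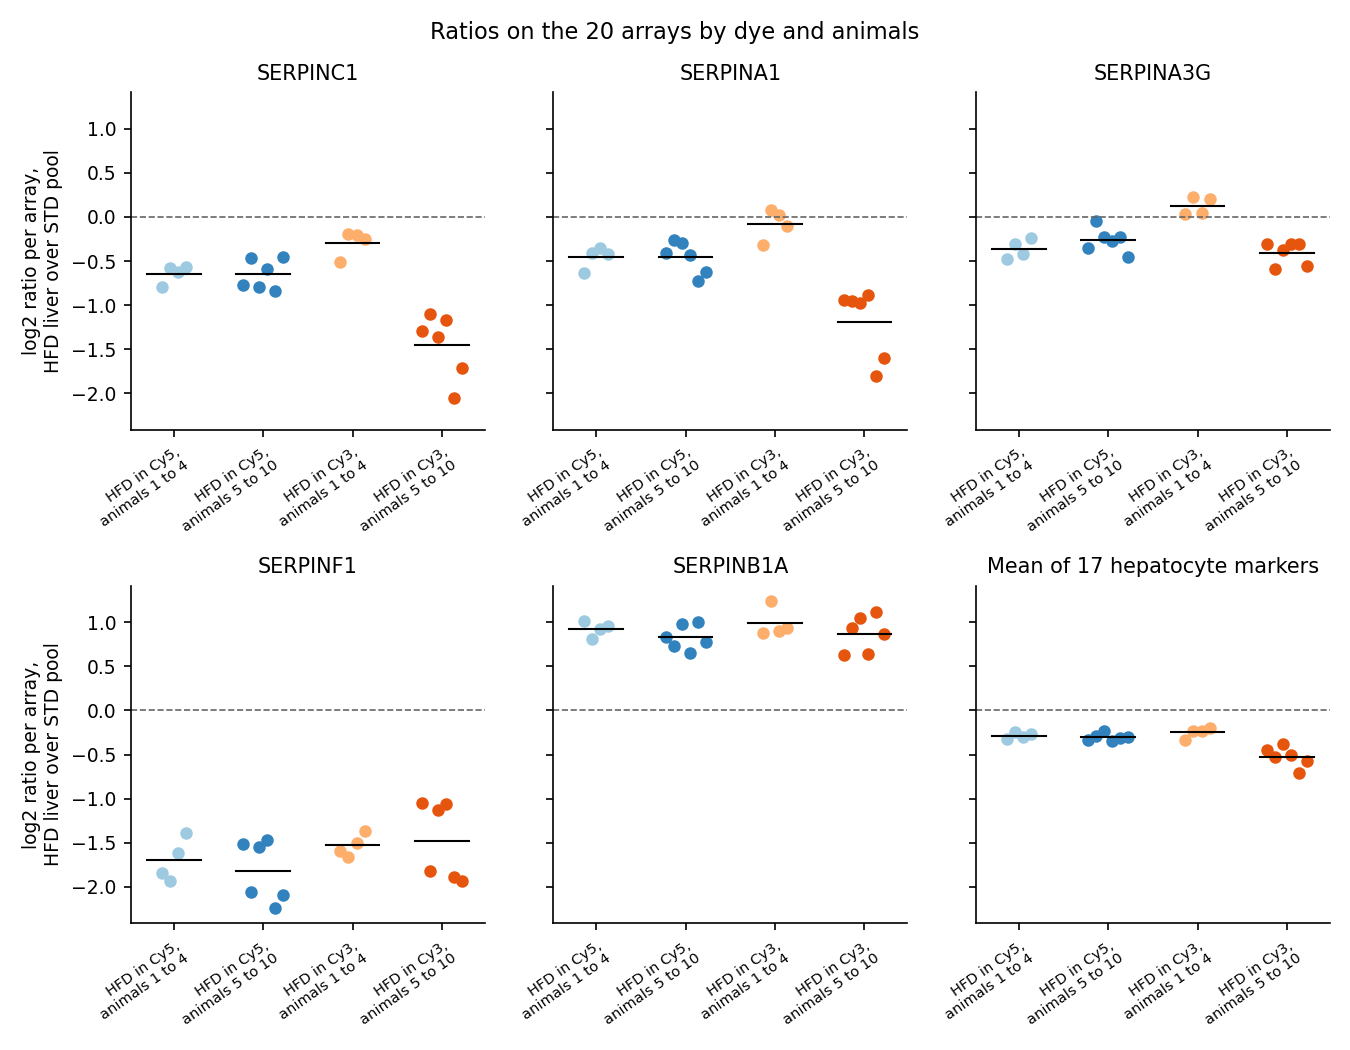
Log2 ratios on each of the 20 arrays for 5 serpins and for the mean of 17 hepatocyte markers, by the dye of the HFD RNA and the animals. Points are arrays and lines are means; SERPINC1 and SERPINA1 lay lowest on the 6 arrays with HFD in Cy3 of animals 5 to 10, while SERPINF1 and SERPINB1A showed no such shift.

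SERPINA1, alpha-1-antitrypsin, is the main inhibitor of neutrophil elastase in plasma and showed the same pattern. Its lowest, median and highest animals were at -1.27, -0.62 and -0.16. Animals 9 and 10 were the lowest and animals 2 and 3 the nearest to 0. The mean was -0.60 ± 0.37, a 1.52-fold lower signal in HFD liver (limma adjusted p = 1.68e-04), and all 5 probes were called lower. Here too the strand is not stated. All 5 probes had a reading frame without stop triplets both as given and on the reverse complement, so the frames do not tell the strands apart. These probes too may lie opposite to the messenger, which was not tested. With HFD in Cy5 the mean was -0.46 in both sets of animals. With HFD in Cy3 it was -1.20 in animals 5 to 10 and -0.08 in animals 1 to 4. Without the 6 arrays it was -0.27 (adjusted p = 1.06e-04, limma).

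SERPINA5, the protein C inhibitor, varied most between animals, with an SD of 0.53. It ran from -1.81 to -0.09 with a median of -0.72. All animals were below 0, with animals 10 and 9 lowest and animal 6 close to 0. The mean of -0.76 corresponded to a 1.70-fold lower level (limma adjusted p = 4.01e-04). All 7 probes, on 2 transcripts, were called lower, and a pair of them share 35 bases. The 6 arrays changed this mean little, to -0.67.

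Other regulators of clotting and complement rose or stayed near 0. SERPING1, the C1 inhibitor, restrains complement C1 and the contact system. It lay between 0.40 and 0.66 with a median of 0.49. Every animal was above 0, and only animal 7 stood off upward. The mean was 0.49 ± 0.07, or 1.41-fold higher in HFD liver (limma adjusted p = 1.13e-08) and was 0.49 with HFD in Cy5 and 0.50 with HFD in Cy3. SERPIND1, heparin cofactor II, is a second thrombin inhibitor of plasma. It ran from 0.16 to 0.33 with a median of 0.20, and its mean was 0.22 ± 0.06 (adjusted p = 5.46e-06, limma). All 7 of its probes were called higher, with means from 0.22 to 0.39.

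SERPINA10, which inhibits factor Xa together with protein Z, ran from -0.12 to 0.24 with a median of -0.01. It averaged 0.02 ± 0.10 and was not called (limma adjusted p = 0.676), although 2 of its 4 probes were called higher, at 0.09 and 0.12. SERPINE2, protease nexin-1, averaged -0.0031 ± 0.24 (adjusted p = 0.97, limma). Its 2 probes have the same 60 bases under different numbers and gave means of -0.0031 and -0.012.

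The 11 probes of SERPING1 did not all move. On transcript hamV2-77424 all 4 probes were called higher, with means from 0.49 to 0.53, and 2 further transcripts with 1 probe each gave 0.31 and 0.38. On transcript hamV2-138271 none of 5 probes was called, with means from -0.08 to 0.11. Probe 68463 ran from 0.47 to 0.60 over the animals and averaged 0.53 ± 0.05. Its exact reverse complement, probe 67294, ran from -0.48 to 0.30 and averaged -0.08 ± 0.25. The same 60 base pairs thus rose in all 10 animals when read on one strand and lay above 0 in 4 of 10 when read on the other. A second pair, probes 68464 and 67292, share 34 bases on opposite strands and averaged 0.49 and 0.07. A mean over all 11 probes, which takes probes of both strands together, gave 0.26 in place of 0.49.

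The SERPINA3 genes descend from a relative of human alpha-1-antichymotrypsin, an inhibitor of chymotrypsin and cathepsin G, and form a multigene cluster in mouse. Their names here are those of the array, 8 genes on 12 transcripts with 18 probes, and close copies may share signal. By brightest probe SERPINA3M fell in all 10 animals, from -0.53 to -0.18 with a median of -0.35. Its mean was -0.37 ± 0.13 (limma adjusted p = 3.80e-06), and -0.24 without the 6 arrays. SERPINA3G averaged -0.25 ± 0.14 (adjusted p = 2.05e-04, limma) but -0.08 without them, where it was no longer called (adjusted p = 0.105, limma). SERPINA3C averaged -0.13 ± 0.12 (adjusted p = 0.00775, limma) and was at 0.0027 without the 6 arrays.

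SERPINA3N ran from -0.27 to 0.08 with a median of -0.09, and its mean of -0.09 ± 0.11 just passed the test (limma adjusted p = 0.0272). That call depended on the probe. Probes 19434 and 19435 of the same transcript rose in all 10 animals, to 0.51 ± 0.26 and 0.48 ± 0.24, and the mean over its 4 probes was 0.22 (adjusted p = 7.83e-04, limma). Without the 6 arrays the brightest probe was at 0.03, and leaving out animal 5, 6 or 7 lost the call (limma adjusted p from 0.0594 to 0.0687). Probe 8054, named SERPINA3C, averaged 0.52 ± 0.26. In these 3 probes animal 7 was lowest, at 0.04, 0.04 and 0.09, and animal 10 highest, at 0.88, 0.81 and 0.92. Probe 19730, which differs from probe 8054 at 4 of 33 overlapping bases, averaged -0.29, and the SERPINA3M probe, which differs from probe 19435 at 6 of 33, averaged -0.37. Of the 18 SERPINA3 probes 4 were called higher, 9 lower and 5 not at all. Among single probes of all named genes 31% were called higher and 28.2% lower.

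SERPINA3K ran from -0.20 to 0.09 with a median of -0.05 and averaged -0.05 ± 0.08 (limma adjusted p = 0.148). Its probe shares 51 bases with a SERPINA3C probe, so the names cannot be told apart there. SERPINA3F and SERPINA3A averaged -0.05 and -0.01 and were not called. SERPINA3J rose by 0.16 ± 0.14 (adjusted p = 0.00437, limma), and SERPINI1, neuroserpin, by 0.09 ± 0.11 (adjusted p = 0.0342, limma). With HFD in Cy5 alone SERPINA3J was at 0.04 and not called, and with HFD in Cy3 alone SERPINI1 was at -0.0065. SERPINI1 was not called when animal 1, 3, 4, 5, 9 or 10 was left out (limma adjusted p from 0.056 to 0.0801). SERPINA11, next to SERPINA1 in the RefSeq annotation, rose by 0.28 ± 0.16 (adjusted p = 1.53e-04, limma), with all 4 probes higher.

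**Figure D3:**
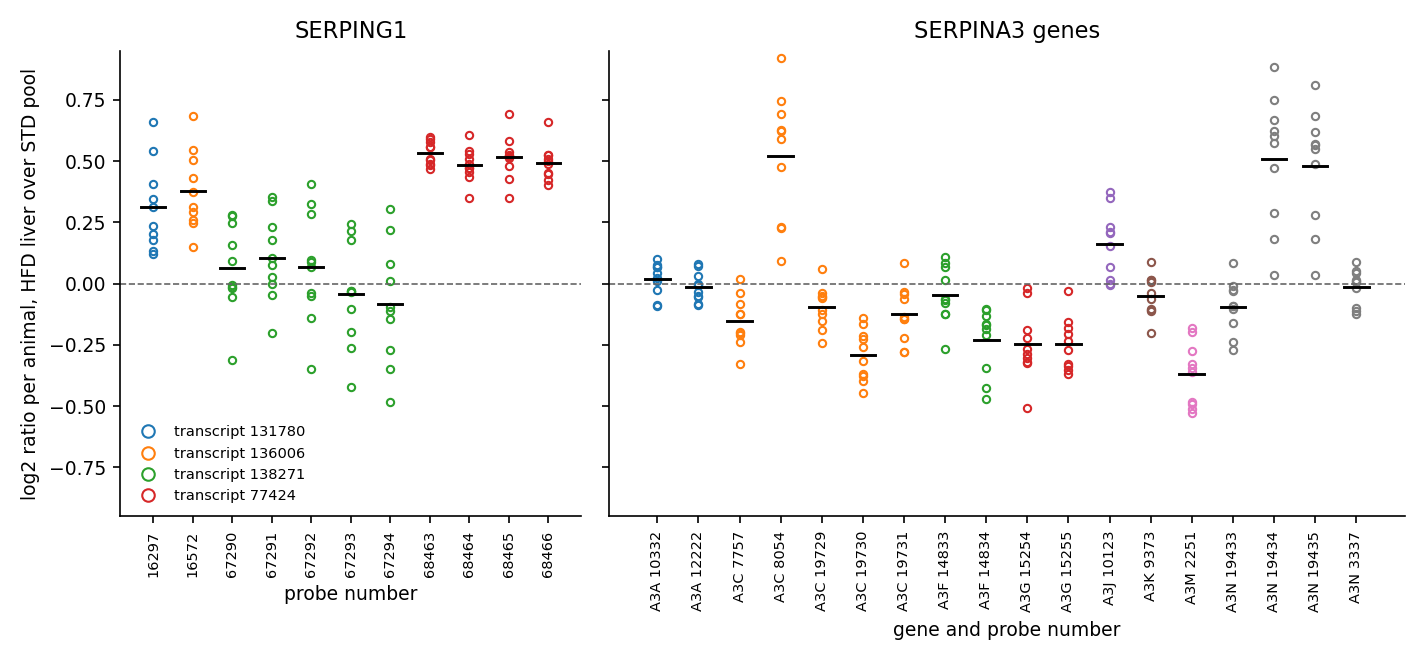
Log2 ratios (HFD liver over STD pool) for each kept probe of SERPING1 (left, coloured by transcript) and of the SERPINA3 genes (right, coloured by gene). Circles are the 10 animals and lines the means; probes 67290 to 67294 straddle 0 while probes 68463 to 68466 average 0.49 to 0.53, and SERPINA3 probes 8054, 19434 and 19435 lie above the others.

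Clade B serpins had the largest increases. SERPINB1A is the mouse name of a leukocyte elastase inhibitor. It ran from 0.65 to 1.06 with a median of 0.93. All 10 animals were well above 0 and close together. The mean was 0.89 ± 0.13, or 1.86-fold higher in HFD liver (limma adjusted p = 2.41e-09), and all 4 probes rose. SERPINB6A, whose human relative SERPINB6 inhibits cathepsin G, ran from 0.29 to 1.18 with a median of 0.79. Animal 8 was the lowest by a wide gap. Its mean was 0.78 ± 0.26, or 1.72-fold higher (adjusted p = 1.33e-06, limma), and 7 of 7 probes on 2 transcripts rose.

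SERPINB8, a furin inhibitor in human biochemical studies, ran from 0.37 to 0.97 with a median of 0.64. Animals 9 and 10 were the highest. Its mean was 0.62 ± 0.21, or 1.54-fold higher (limma adjusted p = 1.39e-06), with 4 of 4 probes higher. SERPINB9, the inhibitor of granzyme B, ran from 0.34 to 1.20 with a median of 0.50. Animal 1 stood above the others. The mean was 0.56 ± 0.25, or 1.48-fold higher (adjusted p = 1.57e-05, limma), with 2 of 2 probes higher. None of these 4 genes moved by more than 1.5 times without the 6 arrays.

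The remaining clade B genes stayed near 0. SERPINB10 averaged 0.09 ± 0.11 (limma adjusted p = 0.0345) and was at 0.05 and not called without the 6 arrays, nor when animal 2, 4, 5, 6, 8 or 10 was left out (limma adjusted p from 0.0559 to 0.0819). SERPINB9B averaged 0.02 ± 0.25 (adjusted p = 0.809, limma), and without the 6 arrays it was at 0.20 and called (adjusted p = 0.016, limma). Of 13 macrophage markers 7 rose and 3 fell, with a mean per animal from -0.06 to 0.33, above 0 in 9 of 10 animals. Of 9 lymphocyte markers none rose and 6 fell, and of 5 tested neutrophil and mast cell markers 1 rose and 1 fell. The part of these cells in the clade B increases was not tested.

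The ITIH heavy chains fell or did not pass the test. ITIH1 ran from -0.74 to -0.23 with a median of -0.44. All animals were below 0, animals 1 and 2 the furthest. Its mean was -0.47 ± 0.18, or 1.38-fold lower in HFD liver (limma adjusted p = 5.94e-06). ITIH2 ran from -0.54 to -0.28 with a median of -0.35, animal 1 being apart at the low end. Its mean was -0.37 ± 0.07 (adjusted p = 1.32e-07, limma), with -0.48 where HFD was in Cy5 and -0.26 where it was in Cy3.

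ITIH3 ran from -0.64 to 0.13 with a median of -0.52. Animals 7 and 10 lay above 0 and the other 8 below. The mean was -0.39 ± 0.28 (limma adjusted p = 6.37e-04). ITIH4, whose product circulates without bikunin and is cut by plasma kallikrein, ran from -0.37 to 0.70 with a median of -0.19. Here again animals 7 and 10 were the highest, at 0.70 and 0.35, and animal 4 was at 0.05. The mean of -0.06 ± 0.34 did not pass the test (adjusted p = 0.601, limma), and none of 8 probes was called. ITIH4, ITIH3 and ITIH1 lie side by side in the RefSeq annotation with no gene between them. ITIH5, a member made mainly outside the liver, averaged -0.10 ± 0.06 (adjusted p = 0.00211, limma), with 1 probe lower and 1 higher of 5, and was at -0.03 and not called without the 6 arrays.

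The further probes of these genes did not all fall. For ITIH1, 10 of 13 probes were called lower, for ITIH2 9 of 13 and for ITIH3 11 of 13. The exceptions lay at the lower probe numbers of each gene, whose position on the transcript is not stated in the files. ITIH1 probe 94161 averaged 0.11, with -0.21 where HFD was in Cy5 and 0.43 where it was in Cy3. ITIH2 probe 96202 averaged 0.09, with -0.20 for HFD in Cy5 and 0.39 for HFD in Cy3. The 2 orientations thus gave opposite signs at those probes and the same sign at the brightest ones. Across the 52 kept ITIH probes the orientations differed in sign at 16.

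**Figure D4:**
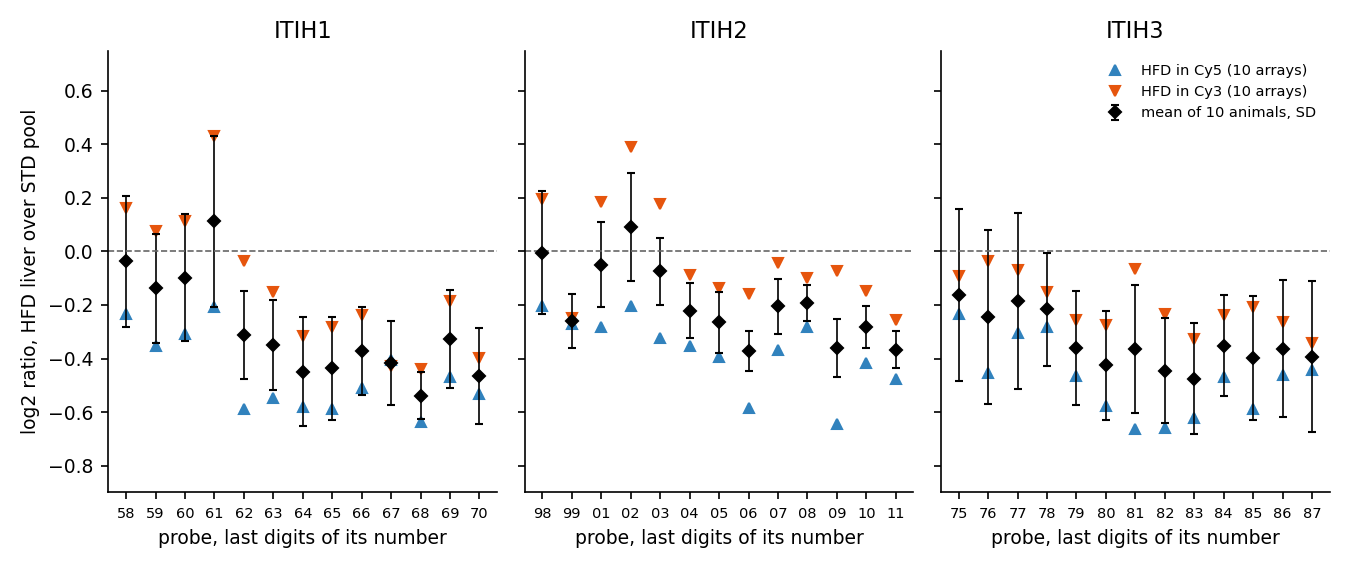
Log2 ratios (HFD liver over STD pool) for the 13 probes each of ITIH1, ITIH2 and ITIH3, in the order of their probe numbers. Black diamonds are means of 10 animals with SD, and triangles the means of the 10 arrays with HFD in Cy5 and of the 10 with HFD in Cy3; at the first 4 probes of ITIH1 and at ITIH2 probes 96198, 96201, 96202 and 96203 the orientations lie on opposite sides of 0.

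Over the family, further probes mostly moved with the brightest one. The 22 called members with further probes had 110 of them, of which 86 (78.2%) were called in the gene's direction and 4 in the opposite one, in SERPINA3C, SERPINA3N and ITIH5. Among all called genes 55.3% of further probes were called in the gene's direction. Genes with an opposite probe made up 13.6% of these members and 22.9% of all called genes.

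**Figure D5:**
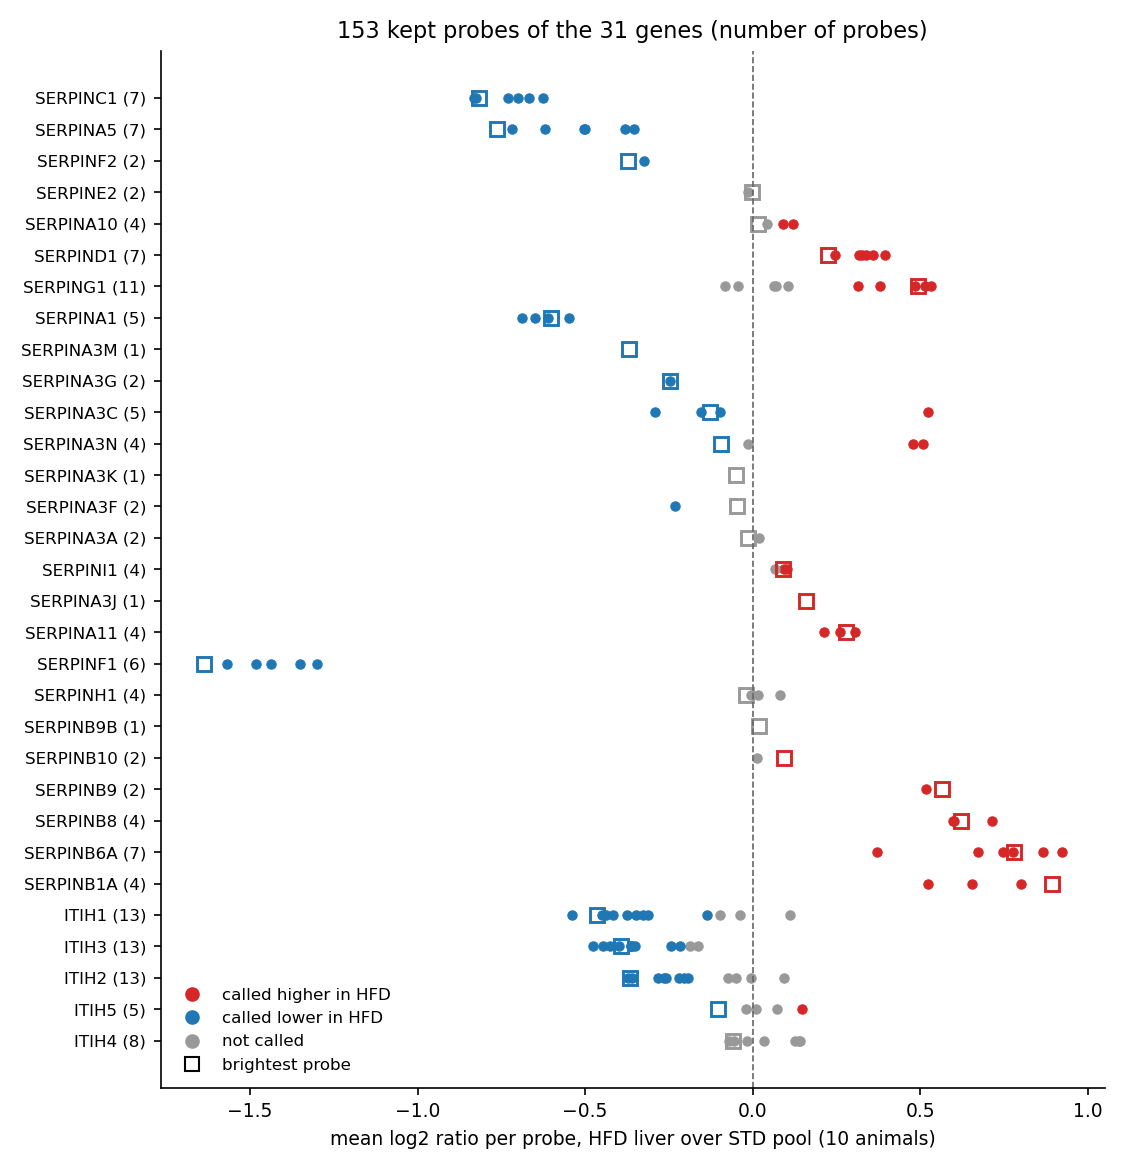
Mean log2 ratio (HFD liver over STD pool) for 153 of the 158 kept probes, by gene, with the number of probes in brackets. Squares mark the brightest probe; red and blue are probes called higher and lower in HFD liver and grey ones were not called, and SERPINF1, SERPINC1 and the clade B genes have all or nearly all probes on one side of 0.

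Genes that act with these inhibitors were called in both directions, at shares near the 60.3% of all genes: 54.5% of target proteases, 59.4% of cofactors and binding partners and 62.5% of other protease inhibitors. Of 33 tested target proteases 6 rose and 12 fell, with a median of -0.07. Those that rose with the smallest p were CTSB, a lysosomal cathepsin, at 0.79 ± 0.32, CTSK at 0.68 ± 0.28 and PLAU, the urokinase-type plasminogen activator, at 0.46 ± 0.23. Those that fell were BMP1, a procollagen proteinase, at -0.65 ± 0.16, F12, the contact factor that SERPING1 inhibits, at -0.32 ± 0.09, and TMPRSS6, a liver membrane protease, at -0.27 ± 0.06. Limma's adjusted p was at most 3.91e-05 for these 6 genes. TMPRSS6 was at -0.49 with HFD in Cy5 and at -0.05 with HFD in Cy3.

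Of 32 tested cofactors and binding partners 8 rose and 11 fell, with a median of -0.04. AMBP, which encodes bikunin, fell in 10 of 10 animals, at -0.79 ± 0.21 (limma adjusted p = 1.69e-07). The heavy chain genes ITIH1, ITIH2 and ITIH3 were called lower too. So was ITIH5, at -0.10, but not without the 6 arrays. VTN, the plasma adhesion protein vitronectin, was at -0.33 ± 0.11 and HABP2, a hyaluronan-binding protease, at -0.27 ± 0.08. The fall of VTN came mostly from one dye orientation, with -0.07 for HFD in Cy5 and -0.60 for HFD in Cy3. Among those that rose were SDC1, a heparan sulphate proteoglycan of hepatocytes, at 1.32 ± 0.16 and PLOD1, a collagen lysyl hydroxylase, at 0.57 ± 0.12. COL1A1, a client of SERPINH1, rose by 0.51 ± 0.22. Limma's adjusted p was at most 1.25e-05 for the named genes of this list. Without the 6 arrays 5 genes of this list rose, and on the third scan session alone 5 rose.

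Of 24 other protease inhibitors tested 6 rose and 9 fell, with a median of 0.04. The broad plasma inhibitor A2M, alpha-2-macroglobulin, was at -1.44 ± 0.35 and its relative PZP at -0.42 ± 0.15. CPB2, a fibrinolysis inhibitor activated by thrombin, was at -0.34 ± 0.11. WFDC2 was at 1.06 ± 0.13, CAST, the calpain inhibitor, at 0.71 ± 0.15 and APLP2 at 0.28 ± 0.04, all with limma's adjusted p at or below 4.18e-06. With all probes of a gene averaged, 3 genes of this list rose.

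Corticosteroid-binding globulin, serpin A6, is outside the 32 genes because the array lists it by a descriptive name. Its 5 probes averaged between 0.65 and 0.89, all higher in HFD liver (limma adjusted p at most 8.83e-07 over 61985 probes). It lies between SERPINA1 and SERPINA10 in the RefSeq annotation, where 19 of the 32 names were found.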

How the data were processed

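The deposited spot intensities (mean signal and median local background, 2 dyes) came from Agilent Feature Extraction 10.7.3.1, per the file headers. The same files hold processed intensities and their log10 ratio, per the file headers. The authors' deposited log2 ratios per probe were made with limma, per the submitters' processing notes. Their other steps were not stated. Those ratios correlated with the ones computed here at r of 0.92 to 0.973 per animal.

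Intensities were corrected with normexp (offset 50) and normalised by loess within each array in limma 3.58.1 (R 4.3.3), with controls and outliers weighted 0. Spots of a probe and then the 2 arrays of an animal were averaged. Probes well above background in either RNA on at least 10 of 20 arrays were kept. Each gene's mean ratio was tested against 0 with lmFit and eBayes, with Benjamini-Hochberg adjustment over 13827 genes. On simulated ratios for 13827 genes, 91% of 67 changes of 0.25 were recovered, with 14 false calls. Far more genes, 60.3%, were called in the data, so these rates need not hold there. Per array, 74.8% to 97.2% of probes exceeded background clearly in HFD RNA and 74.1% to 95.8% in the pool, and 0 spots were saturated. In HFD RNA the share was 74.8% to 86.9% on the 6 arrays that stood apart. It was 85.1% to 86.4% on the other 4 with HFD in Cy3 and 85.1% to 97.2% on the 10 with HFD in Cy5.

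Named were members called at 0.4 or more in size, the main liver-secreted members, and the 3 called genes with the smallest p in each direction of each pathway list. The members and lists were chosen with earlier results of these data known. One member's own values and one probe's sequence are not reported here, and the member stays in the counts.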

Additional observations from a re-analysis of the deposited data

Results flagged for a closer look

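For 31 of the 32 members the highest or lowest of the 10 animals was compared with its nearest neighbour. A gap above 0.466 of the range was noted, which chance gives in about 1 in 20 groups. SERPINB9 was at 1.2 in animal 1, with the next animal at 0.765. ITIH2 was at -0.543 in animal 1 too, with the next at -0.388. SERPING1 was at 0.659 in animal 7, with the next at 0.525. No value changes direction across 0 without these animals.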

How the results depend on the processing

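Of 24 called members, 16 kept their direction and call under all 24 other settings and 20 never changed sign. The 13 members called lower became 9 on the 14 arrays without the 6 that stood apart, and the number called higher was 11 there. Leaving out each animal in turn gave 9 to 11 members called higher and 12 to 13 called lower. Settings that changed a direction were the mean of all probes, with SERPINA3N at 0.22 and ITIH5 at 0.021, and the 14 arrays, with SERPINA3N at 0.027 and SERPINA3C at 0.0027. With HFD in Cy3 alone SERPINA3A was at 0.10 and SERPINI1 at -0.0065. The genes called higher were 3 other protease inhibitors with the mean of all probes, and 5 cofactors on the 14 arrays and on scan session 3. Within scan session 1, 11 members were called higher and 10 lower, and within session 3, 8 and 10. The causes were not tested. No paired analysis was possible because every sample belongs to the 1 HFD group. The pool is 1 RNA, so the variation among STD animals is unknown.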
